A study of Mus musculus with 12 samples.

Results

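To describe how the atrial and ventricular chambers of CUG960 +dox hearts differed in their transcripts, the atria of 3 mice were compared with the ventricles of the same 3 mice. These 6 of the 12 libraries in the series were chosen by their labels alone and were paired by mouse number (V119, V120 and V123). CUG960 mice are homozygous for TREDT960I, a tetracycline-responsive transgene that carries 960 interrupted CUG repeats within human DMPK sequence, and hemizygous for MHCrtTA, in which the alpha myosin heavy chain promoter drives the reverse tetracycline transactivator in cardiomyocytes. The mice were female, of the FvB strain, and 10 weeks old, with doxycycline chow from postnatal day 1. The other 6 libraries, used here for comparison, came from atria and ventricles of 3 MHCrtTA +dox controls (V327, V333 and V334). The controls were of the same sex, strain and age. They carry MHCrtTA hemizygously and received doxycycline but lack the repeat transgene, so the transactivator and the drug were common to every mouse. Both chambers are bulk tissue, and the labels do not divide left from right. The human DMPK transgene itself was not analysed here.

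Atrial and ventricular cardiomyocytes share a contractile plan but build it partly from different gene copies, such as separate myosin light chains. Atrial cells also act as endocrine cells that store and release natriuretic peptide, whereas ventricular cells carry the main pumping load and rely heavily on mitochondrial oxidation of fatty acids. Chamber identity is held by transcription factors, among them the NR2F and TBX5 proteins on the atrial side and IRX4 and HEY2 on the ventricular side. Myotonic dystrophy type 1, which the CUG960 mouse models, affects conduction in both chambers and often brings atrial arrhythmia.

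The 3 atrial libraries held 120619011 (V119), 134863462 (V120) and 116127966 (V123) counts, and the ventricular libraries of the same mice held 160676189, 152709789 and 140987828. Every ventricular library was therefore deeper than every atrial one, and levels are given in CPM (counts scaled to a common library size) after TMM scaling, which corrects for library composition. Mitochondrially encoded genes took 10.9%, 11.5% and 12% of the counts in atria and 18.4%, 15.3% and 17.3% in ventricles. Replicate atria correlated with each other across genes at r = 0.998 to 0.999 on the log2(CPM + 1) scale and replicate ventricles at r = 0.998, whereas atria and ventricles of the same mouse correlated at r = 0.971 to 0.972. The first principal component held 89.4% of the variance and separated the chambers, and the second held 3.98%.

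The 6 defining markers separated the chambers without overlap. Myl7 (chr11:5896637-5898782), the regulatory light chain of atrial myosin, was at 3380, 2958 and 2581 CPM in atria of V119, V120 and V123 and at 0.198, 0.314 and 57.7 CPM in their ventricles. All 3 atria were high, but the ventricles of V123 lay far above the other 2 ventricles. Sln (chr9:53850164-53854560), which encodes sarcolipin, an inhibitor of the calcium pump, was at 1342, 1538 and 1308 CPM in atria and at 0.219, 0.351 and 19.1 CPM in ventricles, again with V123 as the high ventricle. Nppa (chr4:148000722-148002079), the atrial natriuretic peptide, was at 11647, 12617 and 12114 CPM in atria and at 89.3, 231 and 156 CPM in ventricles. Its 3 ventricles were spread about their mean of 159 ± 71.0 CPM (SD, n = 3), with V120 highest rather than V123. Bmp10 (chr6:87428994-87437677), a secreted factor that in adult hearts is made mainly by right atrial cardiomyocytes, was at 1453, 1594 and 1812 CPM in atria and at 0.0354, 0.284 and 0.214 CPM in ventricles. The ventricles of V123 were not the highest for this gene.

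On the ventricular side, Myl2 (chr5:122100951-122113472), the ventricular regulatory light chain, was at 9.67, 10.6 and 9.24 CPM in atria and at 9690, 9897 and 10349 CPM in ventricles. Irx4 (chr13:73260479-73269608), a transcription factor of ventricular cardiomyocytes, was at 0.0143, 0.0459 and 0.0226 CPM in atria, or 2, 7 and 3 counts, and at 33.0, 34.0 and 32.0 CPM in ventricles. Both were tightly grouped within each chamber. In the paired edgeR quasi-likelihood test with Benjamini-Hochberg adjustment over all genes, the log2 fold change of atria over ventricles was 11.00 ± 1.92 (SE) for Myl7 (adjusted P value 0.00154), 9.90 ± 1.37 for Sln (0.000436) and 13.20 ± 0.36 for Bmp10 (9.57e-08). It was 6.36 ± 0.25 for Nppa (4.10e-07), −9.99 ± 0.12 for Myl2 (3.35e-09) and −10.15 ± 0.19 for Irx4 (2.27e-08). Thus the labels of all 6 libraries matched their chamber, and the plot of the 6 markers shows the level in each library.

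**Figure D1:**
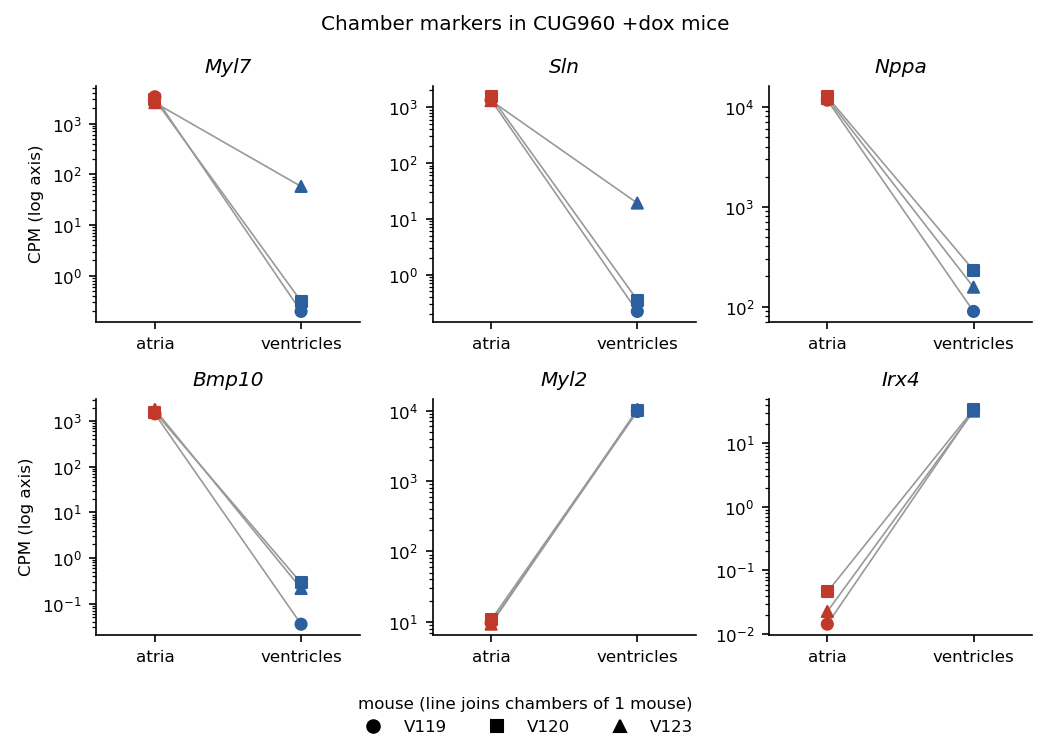
CPM (log axis) of the 6 chamber markers in atria (red) and ventricles (blue) of V119 (circle), V120 (square) and V123 (triangle), with a grey line joining the chambers of 1 mouse. Each chamber's points stay apart from the other's for every gene, and the V123 ventricles stand above the other ventricles for Myl7 (57.7 CPM) and Sln (19.1 CPM) but not for Nppa or Bmp10.

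The 250 bases before the RefSeq starts of Myl7, Nppa and Myl3, the ventricular essential light chain, are shown as examples of an atrial light chain, an atrial peptide and a ventricular light chain gene that differed between chambers in every mouse. The sequences are from the RefSeq GRCm38.p6 table, run 5′ to 3′ on the gene's strand and end just before the start. They lie at chr11:5898783-5899032 (minus strand), chr4:148000472-148000721 (plus strand) and chr9:110763428-110763677 (plus strand). Capitals mark each GATAA (the core read by GATA factors, searched on both strands, so that TTATC is also a match) and each CArG box, the site type of serum response factor.
Myl7: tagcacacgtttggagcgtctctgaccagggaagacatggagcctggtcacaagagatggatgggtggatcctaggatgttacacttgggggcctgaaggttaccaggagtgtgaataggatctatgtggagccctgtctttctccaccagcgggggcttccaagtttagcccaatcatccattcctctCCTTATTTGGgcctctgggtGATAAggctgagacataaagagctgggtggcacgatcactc
Nppa: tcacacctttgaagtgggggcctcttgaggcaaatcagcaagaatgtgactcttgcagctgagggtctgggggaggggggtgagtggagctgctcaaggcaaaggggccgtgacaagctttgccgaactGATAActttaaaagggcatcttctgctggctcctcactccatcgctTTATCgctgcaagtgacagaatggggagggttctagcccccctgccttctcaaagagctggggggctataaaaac
Myl3: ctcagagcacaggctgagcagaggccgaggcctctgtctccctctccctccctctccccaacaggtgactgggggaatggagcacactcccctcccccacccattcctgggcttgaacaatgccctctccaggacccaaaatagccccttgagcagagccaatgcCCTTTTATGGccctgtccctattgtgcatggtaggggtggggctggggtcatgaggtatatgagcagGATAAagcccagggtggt

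Myl7 held 1 GATAA and 1 CArG box, Nppa held 2 GATAA and 0 CArG boxes, and Myl3 held 1 of each, so the atrial and ventricular light chain genes carried the same pair of motifs. Among 32817 windows of the same length in the table, 22.6% held GATAA and 1.5% held a CArG box. These matches are a description of letters and were not tied to binding.

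The level of an atrial marker in a ventricular library was expressed as a percentage of its level in atria of the same mouse, since atrial tissue carried along in dissection would add atrial transcripts to ventricles. For Myl7 this was 0.00586% in V119, 0.0106% in V120 and 2.23% in V123. Myl4, the atrial essential light chain, gave 0.0810%, 0.115% and 2.05%, and Sln gave 0.0163%, 0.0228% and 1.46%. The ventricles of V119 and V120 were thus nearly free of these 3 transcripts, and those of V123 held about 1 to 2 parts in 100. Bmp10 did not follow, at 0.00244%, 0.0178% and 0.0118%. Nppa, at 0.767%, 1.83% and 1.29%, and Mybphl, a myosin-binding protein of atria, at 0.633%, 2.46% and 2.77%, were higher in both V120 and V123 than in V119. Dkk3, a secreted protein abundant in atria, was at 0.551%, 0.628% and 1.91%.

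A wider set was taken from these values, so it is a description only: 8 genes had at least 50 CPM in all 3 atria and under 0.5% of that in the ventricles of V119 and V120. In the V123 ventricles these stood at 2.23% (Myl7), 2.05% (Myl4), 1.46% (Sln), 1.44% (Cilp2), 0.984% (Sbk3), 0.724% (Tmem163), 0.467% (Hamp) and 0.0118% (Bmp10). In the 3 control ventricles Myl7 was at 0.280%, 0.176% and 0.692% of the atrial level, and Bmp10 at 0.121%, 0.149% and 0.362%, so that no library of the controls was as low in Myl7 as V119 and V120 or as high as V123. Whether carried-over atrial tissue, the sampled ventricular region or expression by ventricular cells set these values was not tested. Leaving out V123 moved the fold changes of these 3 genes but left that of Bmp10 at 13.28. Without V123 the log2 fold change was 13.61 for Myl7, 12.32 for Sln and 10.02 for Myl4, against 8.65, 8.43 and 7.65 without V119, and all 3 remained past the threshold in every leave-out.

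**Figure D2:**
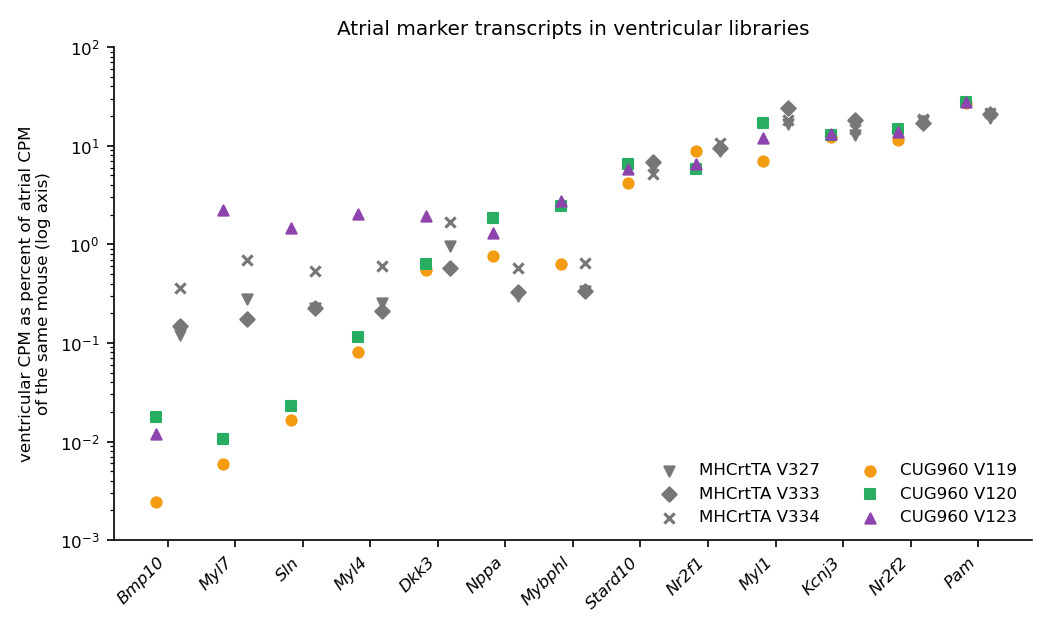
Ventricular CPM of 13 atrial marker genes as a percentage of atrial CPM in the same mouse (log axis), for CUG960 mice V119 (orange), V120 (green) and V123 (purple) and for MHCrtTA controls (grey). V123 stands far above V119 and V120 for Myl7 (2.23% against 0.00586% and 0.0106%) and among them for Bmp10, whereas Pam, Kcnj3 and Nr2f2 lie above 10% in every mouse.

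Of 17559 genes tested, 5899 (33.6%) passed between atria and ventricles (Benjamini-Hochberg adjusted P value below 0.05 in edgeR and a change of 1.5-fold or more), with 3030 (17.3%) higher in atria and 2869 (16.3%) higher in ventricles. Without V123 the number was 5966, against 5813 without V119 and 5379 without V120. Adjusted P values in edgeR were far smaller without V123, so these counts are not equally strict. For Cxcl13 the value was 3.97e-203 without V123, against 2.83e-07 without V119 and 7.59e-07 without V120. The groups did not overlap for 10967 genes (62.5%), among them 5768 of the 5899. A fold of at least 4 was reached by 908 genes in atria and 541 in ventricles. The median log2 fold change over all genes was 0.01, and the median size, regardless of sign, was 0.42. Of the genes that differed, 4990 were protein coding, 180 antisense and 164 lincRNA by annotation. The lists below were set beside the shares of 33.6%, 17.3% and 16.3%.

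**Figure D3:**
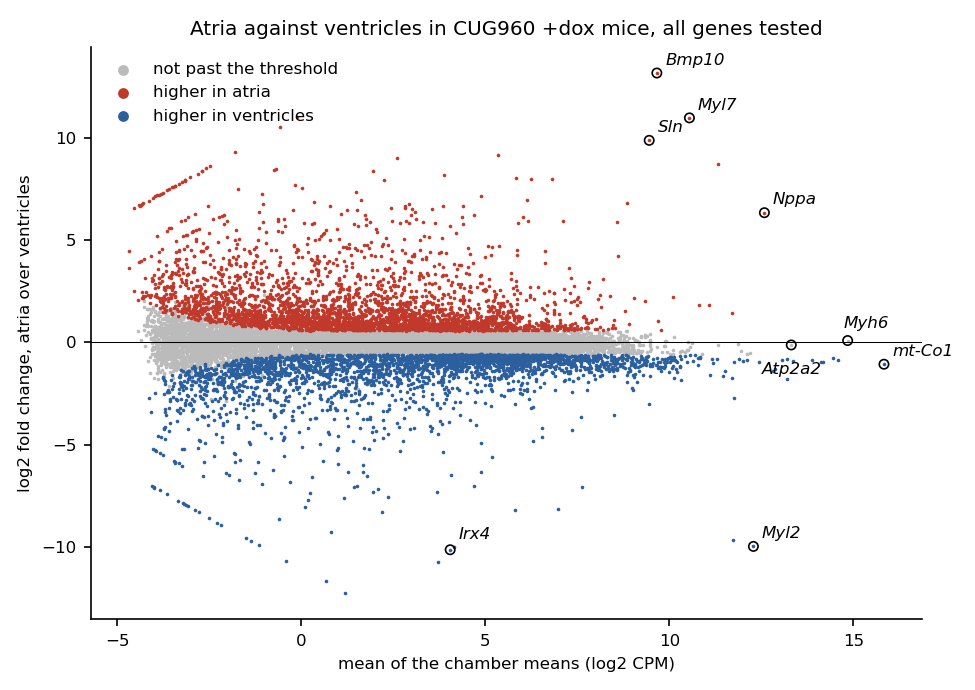
Log2 fold change of atria over ventricles against mean level (log2 CPM) for all 17559 genes tested, with 3030 genes higher in atria in red, 2869 higher in ventricles in blue and the rest in grey. Bmp10, Myl7, Sln and Nppa lie at the top and Myl2 and Irx4 at the bottom, whereas the abundant Myh6 and Atp2a2 lie near 0. The slanted rows at the left edge are rare genes, including 33 with 0 counts in all ventricles and 21 with 0 in all atria, whose fitted values depend on the prior count and are no measure of size.

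Among genes with at least 5 CPM, the largest differences toward atria after Bmp10, Myl7 and Sln were in Hamp, Cxcl13, Myl4, Tat, Sphkap, Tmem163 and Cilp2. Hamp, which encodes hepcidin, the regulator of iron export, was at 81.1 ± 5.76 CPM in atria and 0.148 ± 0.186 CPM in ventricles. Cxcl13, a B cell chemokine, was at 8.85, 15.8 and 11.9 CPM in atria and 0.0212, 0.0448 and 0 CPM in ventricles. Tat (tyrosine aminotransferase) was at 7.72 ± 2.50 CPM against 0.0223 ± 0.0146 CPM, and Sphkap, which anchors protein kinase A, at 29.2 ± 2.63 CPM against 0.107 ± 0.130 CPM (n = 3 each). Cilp2, a matrix protein, stood at 160, 146 and 149 CPM in atria and at 0.0919, 0.127 and 2.14 CPM in ventricles, with V123 high as for Myl7. Their log2 fold changes ran from 8.01 (Cilp2) to 9.19 (Hamp), and without V123 those of Hamp, Sphkap, Tmem163 and Cilp2 rose to 11.00, 9.74, 8.78 and 10.46. Cxcl13 was 9.71 without V120.

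Toward ventricles, large differences were in Irx4, Gm34302, Myl2, Myl3, Gm826, Cpxm2, Lrtm1, Irx1 and Gm14261. Cpxm2, a carboxypeptidase-like secreted protein, was at 94.4, 110 and 127 CPM in ventricles and 0.378, 0.360 and 0.369 CPM in atria. Lrtm1, a leucine-rich repeat membrane protein, was at 213, 268 and 268 CPM against 1.04, 0.786 and 0.783 CPM. Irx1 differed between ventricles themselves, at 21.2, 6.48 and 2.93 CPM in V119, V120 and V123. The unnamed transcripts Gm34302, Gm826 and Gm14261 had log2 fold changes of −10.00, −8.32 and −7.32, and without V120 the first 2 were −11.00 and −9.07.

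The contractile genes divided by chamber. Of 48 sarcomere genes, all tested, 7 were higher in atria and 20 in ventricles, with a median log2 fold change of −0.46. Compared per kilobase of annotated exon, Myl7 made up 99.9% of the sum of Myl7 and Myl2 in each atrium and 0.00675%, 0.0105% and 1.81% of it in the ventricles of V119, V120 and V123. For the essential light chains, Myl4 made up 99.6% to 99.7% of Myl4 and Myl3 in atria and 0.0306%, 0.0373% and 0.590% in ventricles. Both light chain pairs therefore switched almost fully. The myosin heavy chains did not: Myh6, which encodes the alpha heavy chain, made up 96.6%, 96.8% and 97.1% of Myh6 and Myh7 per kilobase in atria and 96.1%, 95.5% and 95.3% in ventricles. Its log2 fold change was 0.09 ± 0.06 (adjusted P value 0.209), and that of Myh7 was −0.39 ± 0.11 (0.0153), below the fold limit.

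Acta1, skeletal alpha actin, was at 202, 525 and 445 CPM in ventricles and 1.80, 1.69 and 5.56 CPM in atria (−7.10 ± 0.37). Actc1, the main cardiac actin, was also higher in ventricles but by less, at 10671 ± 989 CPM against 4279 ± 265 CPM (−1.32 ± 0.09). Myh7b, which hosts a heart microRNA, was at 33.0 ± 1.57 CPM in ventricles and 0.368 ± 0.0770 CPM in atria. Tnnc1, the cardiac troponin C of the thin filament, was lower in atria (−1.86 ± 0.13). Mybpc3, cardiac myosin-binding protein C, was also lower there (−1.76 ± 0.07). Tnni1, the slow troponin I of the fetal heart, was at 20.4, 13.1 and 13.9 CPM in atria and 0.820, 0.605 and 0.874 CPM in ventricles, and Tpm2, beta tropomyosin, at 294 ± 21.4 CPM and 68.4 ± 18.1 CPM. Mybphl was at 743 CPM in atria and 14.6 CPM in ventricles on average. Myh7b, Tnnc1, Mybpc3, Tnni1 and Tpm2 were chosen once their values had been seen.

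The transcription factors split evenly. Of 38 listed, 35 were tested, and 10 were higher in atria and 10 in ventricles (median log2 fold change −0.07). The Iroquois genes were ventricular: besides Irx4, Irx3 was at 13.5, 15.9 and 9.59 CPM in ventricles and 0.371, 0.505 and 0.497 CPM in atria (−4.81 ± 0.18). Irx1 and Irx2 were also higher in all ventricles, but unevenly, since Irx2 was at 15.5, 1.88 and 1.66 CPM in V119, V120 and V123. Without V119 their log2 fold changes were −6.47 and −4.69, against −7.54 and −6.02 with all mice. Lbh, a transcriptional cofactor, was at 668 ± 56.8 CPM in ventricles and 57.4 ± 2.15 CPM in atria (−3.54 ± 0.09). On the atrial side, Gata5 was at 6.30, 6.01 and 4.76 CPM in atria and 0.0566, 0.0970 and 0.181 CPM in ventricles (5.69 ± 0.33, and 6.33 without V123).

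Outside the naming rule, the known atrial regulators were looked up. Tbx5 was at 190, 191 and 210 CPM in atria and 36.2, 40.0 and 34.0 CPM in ventricles (2.42 ± 0.09, adjusted P value 3.66e-07). Nr2f2 was at 52.7 ± 5.82 CPM against 6.99 ± 0.869 CPM (2.92 ± 0.10), and Nr2f1 had a log2 fold change of 3.84 ± 0.13. The pan-cardiac factor Nkx2-5 was at 56.7, 65.2 and 45.7 CPM in atria and 58.3, 63.1 and 43.1 CPM in ventricles. It overlapped between chambers (0.03 ± 0.07, adjusted P value 0.734), and the order of the mice was the same in both.

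The secretory genes leaned toward atria. Of 32 listed, 23 were tested, with 10 higher in atria and 1, Pcsk1, higher in ventricles (median log2 fold change 0.54). Pam, the enzyme that amidates peptides and is a main membrane protein of atrial granules, was at 3102, 3549 and 3521 CPM in atria and 841, 989 and 982 CPM in ventricles (1.86 ± 0.08). Corin, the protease that cleaves the Nppa precursor, was at 204 ± 26.5 CPM against 115 ± 5.68 CPM (0.81 ± 0.08). Dkk3 was at 831, 969 and 932 CPM in atria and 4.58, 6.08 and 17.8 CPM in ventricles, and Npr3, the natriuretic peptide clearance receptor, at 278, 305 and 315 CPM and 42.8, 42.7 and 44.3 CPM (2.79 ± 0.08). Nppb, the B-type peptide, had overlapping chambers, at 130, 211 and 57.2 CPM in atria and 54.0, 127 and 128 CPM in ventricles (0.31 ± 0.39, adjusted P value 0.535). Without V123 its log2 fold change was 1.01, and without V119 it was −0.21. Corin and Nppb were chosen once their values had been seen.

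Of 50 calcium handling genes, 49 were tested, with 10 higher in atria and 7 in ventricles (median −0.24), and the 34.7% that differed were close to the 33.6% over all genes. Atp2a2, the sarcoplasmic reticulum calcium pump, was at 9093, 9396 and 10835 CPM in atria and 10615, 10656 and 10535 CPM in ventricles (−0.12 ± 0.08, adjusted P value 0.218). Its inhibitors were opposed. Pln, phospholamban, was at 805, 1016 and 973 CPM in atria and 6002, 5769 and 6378 CPM in ventricles (−2.71 ± 0.10). Per kilobase, Sln made up 77.7%, 76.0% and 73.8% of Sln and Pln in atria and 0.00765%, 0.0127% and 0.624% in ventricles. Ryr3, a ryanodine receptor of low abundance in heart, was at 9.58, 12.7 and 17.6 CPM in atria and 1.27, 2.22 and 1.93 CPM in ventricles (2.87 ± 0.14), and Fkbp1b, which binds ryanodine receptors, was higher in atria by 2.04 ± 0.20.

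Among ion channels the differences ran both ways. Of 50 potassium channel genes, 48 were tested, with 14 higher in atria and 15 in ventricles (median 0.10). Kcnj3 and Kcnj5, the subunits of the acetylcholine-activated potassium channel, were at 389, 403 and 419 CPM and at 522, 523 and 618 CPM in atria. In ventricles Kcnj3 was at 47.1, 51.1 and 55.0 CPM and Kcnj5 at 118, 98.0 and 135 CPM, so both were high in each atrium (2.99 ± 0.08 and 2.25 ± 0.09). Kcna1, a voltage-gated channel best known from neurons, was at 3.55, 4.93 and 6.26 CPM in atria and 0.325, 0.306 and 0.321 CPM in ventricles. Toward ventricles stood Abcc9, a subunit of ATP-sensitive channels that also marks pericytes (277 ± 42.6 CPM against 51.2 ± 9.39 CPM), Kcnj14 (−3.92 ± 0.17), Kcnc1 (−4.85 ± 0.26), Kcne1 (−2.98 ± 0.26) and Kcnk1 (−3.59 ± 0.32). Kcna5, included among 15 atrial marker genes of which 14 were tested and 13 were higher in atria, was the exception, at 4.57 ± 1.32 CPM in atria and 19.3 ± 7.45 CPM in ventricles. Of the 13 ventricular markers, all tested, 10 were higher in ventricles, Cited1 was higher in atria (1.95 ± 0.18), and Myh7 and Kcnv2 did not pass.

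Of 44 sodium, calcium and pacemaker channel and connexin genes, 41 were tested, with 15 higher in atria and 13 in ventricles (median 0.21). Cacna2d2, an auxiliary calcium channel subunit, was at 138, 137 and 151 CPM in atria and 2.76, 1.5 and 2.65 CPM in ventricles (5.97 ± 0.17). Cacna1h, a T-type calcium channel, was at 11.1, 13.4 and 17.5 CPM against 0.912, 0.687 and 0.981 CPM (4.01 ± 0.15), and Cacna2d3 and Clcn1 were higher in atria by 4.23 ± 0.12 and 3.57 ± 0.21. Gja5, the connexin of atrium and conduction system, was at 16.2, 12.2 and 15.6 CPM in atria and 5.93, 4.14 and 3.14 CPM in ventricles (1.76 ± 0.16). Gja1, the connexin of working myocardium, was at 203, 217 and 210 CPM in atria and 355, 315 and 296 CPM in ventricles. It passed the fold limit narrowly (−0.61 ± 0.09, adjusted P value 0.000433) and was −0.52, under the limit, without V119.

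In autonomic signalling, 32 of 35 genes were tested, with 7 higher in atria and 8 in ventricles (median 0.14). Gng2, a G protein gamma subunit, was at 74.6, 75.7 and 87.0 CPM in atria and 2.84, 2.37 and 3.95 CPM in ventricles (4.72 ± 0.12), and Adcy1, a calcium-stimulated adenylyl cyclase, at 172, 177 and 220 CPM and 7.50, 11.3 and 6.82 CPM (4.50 ± 0.19). Chrm2, the main cardiac muscarinic receptor, looked up outside the rule, was at 294 ± 31.5 CPM in atria and 118 ± 10.4 CPM in ventricles (1.31 ± 0.10), and the less abundant Chrm3 was higher in atria by 2.74 ± 0.18. Rgs5, a regulator of G protein signalling that is abundant in pericytes, was higher in ventricles (−2.33 ± 0.09), as was the adrenergic receptor Adra1d (−3.31 ± 0.29). Of 23 retinoic acid genes, 21 were tested, with 9 higher in atria and 4 in ventricles (median 0.48). Aldh1a2, which makes retinoic acid, was at 21.2, 21.5 and 16.0 CPM in atria and 2.84, 2.72 and 2.11 CPM in ventricles (2.94 ± 0.09). Stra6, the retinol uptake receptor, was higher in atria by 3.40 ± 0.33, and Rarres2, the chemerin gene, by 2.45 ± 0.18, with V123 lowest of the atria at 107 CPM against 201 and 184 CPM.

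Most of the listed oxidative phosphorylation and fatty acid genes were higher in ventricles. Of 78 nuclear subunits of oxidative phosphorylation, all tested, 69 were higher in ventricles and 0 in atria (median −0.99), against 16.3% of all genes. Sdhb, a subunit of succinate dehydrogenase, was at 265, 259 and 253 CPM in atria and 732, 828 and 786 CPM in ventricles (−1.59 ± 0.08), and Cox8b, Cox4i2 and Ndufs6 were at −1.57, −1.53 and −1.45. Atp5b, the most abundant member, was at −0.58 ± 0.08, just under the fold limit. Of 39 fatty acid genes, all tested, 29 were higher in ventricles and 1 in atria (median −1.05), among them the fatty acid carrier Fabp3, at 1355 ± 159 CPM in atria and 4309 ± 720 CPM in ventricles, and the lipase Lpl, at 1096 ± 74.0 CPM and 3282 ± 192 CPM. Ucp3 and Esrrb were higher in ventricles by similar amounts (−1.65 ± 0.15 and −1.62 ± 0.12). Mb, the oxygen store myoglobin, was at 3854, 4879 and 3844 CPM in atria and 13408, 16122 and 14222 CPM in ventricles (−1.80 ± 0.07).

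Of 38 glycolysis, lactate and glycogen genes, all tested, 19 were higher in ventricles and 4 in atria (median −0.56). Ldhb, the heart form of lactate dehydrogenase, was lower in atria (−1.43 ± 0.08), whereas Phkg1, a phosphorylase kinase subunit, was higher there, at 112, 115 and 108 CPM against 29.7, 31.4 and 19.0 CPM (2.09 ± 0.13). Gapdh (−0.60 ± 0.10) crossed the fold limit with little room and fell under it without V120 (−0.46). Of 13 mitochondrially encoded mRNAs, 12 were higher in ventricles (median −0.88). The most abundant, mt-Co1, was at 33781, 39371 and 40360 CPM in atria and 81483, 74082 and 81412 CPM in ventricles (−1.06 ± 0.08). Gm28437, Gm28661 and Gm10925, nuclear copies of mitochondrial sequence that lie together at chr1:24613189-24615565, were among the 10 genes with the most counts in each chamber, and since reads from near-identical copies can be split between them, their values and those of the mitochondrial genes they resemble are uncertain. With mitochondrially encoded genes removed before scaling, 5901 genes differed, against 5899.

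**Figure D4:**
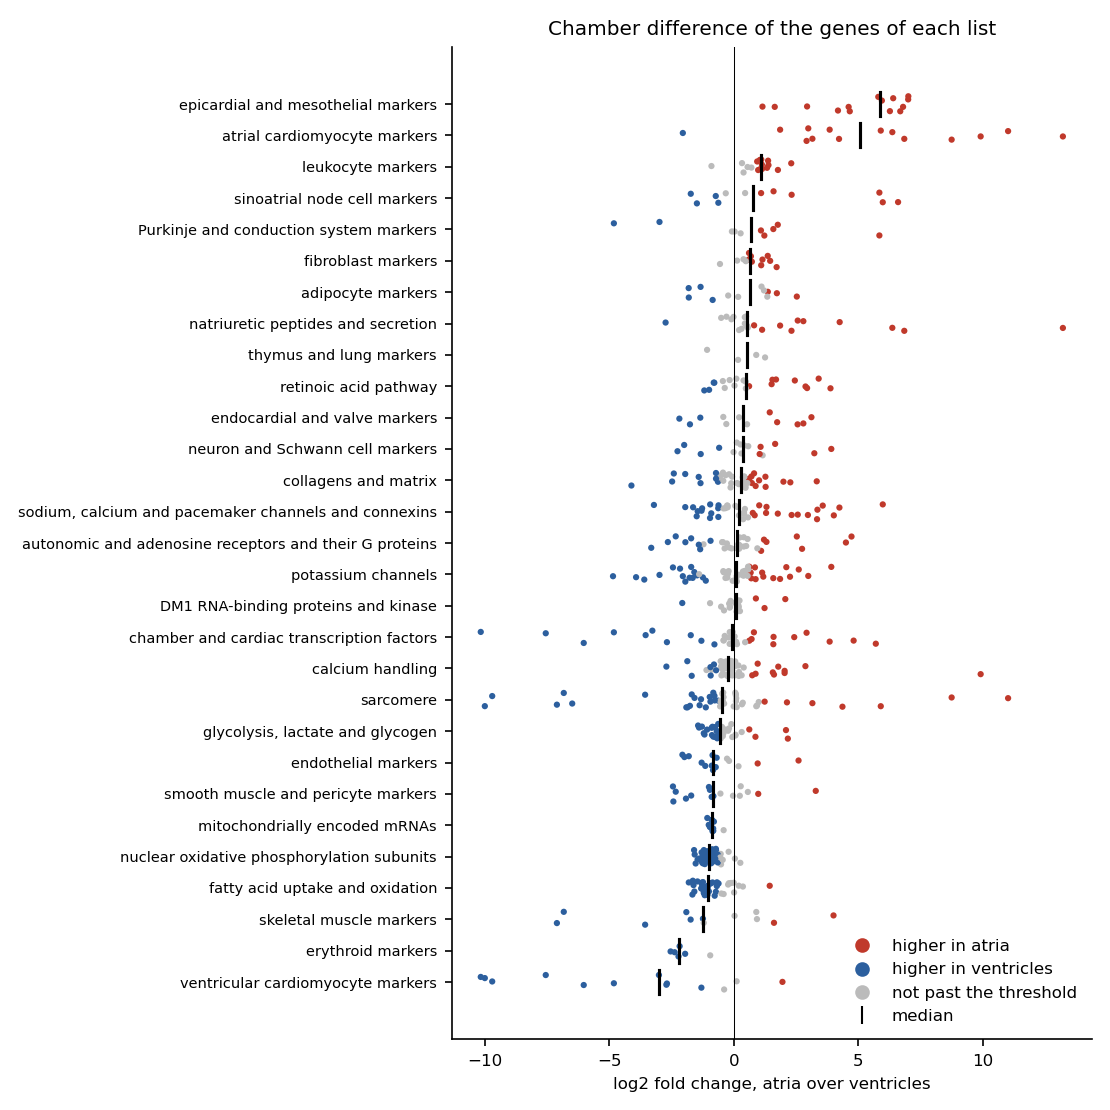
Log2 fold change of atria over ventricles for each tested gene of the 29 lists (dots), coloured red where higher in atria, blue where higher in ventricles and grey where not past the threshold, with a black bar at each list's median; lists are ordered by that median. Epicardial and mesothelial (median 5.87) and atrial (5.06) markers lie at the top, and ventricular (−3.00) and erythroid (−2.20) markers at the bottom.

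Markers of other cell types also moved with the chamber, and in bulk tissue fewer cells of a type and less RNA per cell cannot be told apart. Epicardial and mesothelial markers were the most atrial list: 14 of 14 were higher in atria (median 5.87), with summed levels of 455, 435 and 297 CPM in atria and 22.0, 25.5 and 19.2 CPM in ventricles. Upk3b, a mesothelial uroplakin and the most abundant member in atria, was at 168, 154 and 98.2 CPM in atria and 1.27, 1.94 and 0.338 CPM in ventricles (6.99 ± 0.28). Bnc1, the most changed of the list, had 791, 1111 and 695 counts in atria and 3, 13 and 3 in ventricles, and Upk1b and Lrrn4 were higher in atria by 6.79 and 6.67. Tcf21 and Aldh1a2 of this list also stand in the fibroblast and retinoic acid lists. The V123 ventricles, highest for Myl7, were the lowest of the 3 for Upk3b, Upk1b and Lrrn4.

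Leukocyte markers were higher in atria for 12 of 17 genes and in ventricles for 0 (median 1.07), with sums of 622, 705 and 523 CPM against 283, 309 and 209 CPM. Lyz2 was the most abundant in both chambers (1.37 ± 0.07), and the macrophage genes Cd163, Adgre1 and Csf1r were higher in atria by 2.30, 1.77 and 1.39. Fibroblast markers were higher in atria for 9 of 14 genes and in ventricles for 0 (median 0.65), with sums of 7344, 8183 and 6796 CPM against 3256, 3721 and 3413 CPM, most of it Gsn (1.46 ± 0.08). Collagen and matrix genes went both ways, with 11 of 42 tested higher in atria and 10 in ventricles. Comp, a matrix glycoprotein, was higher in atria (3.33 ± 0.31), and Cilp, Col8a1 and Thbs4 in ventricles (−4.11, −2.48 and −2.41). Of 12 adipocyte markers tested, 3 were higher in atria and 4 in ventricles. The ventricular Fabp4 and Dgat2 (−1.81 each) passed without any 1 mouse. Fabp4 also stands in the endothelial and fatty acid lists. Adipoq had overlapping chambers, and its log2 fold change of 1.36 was 0.58 without V120, which did not pass, and that of Cfd was 1.73 and 1.04.

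Endothelial markers were higher in ventricles for 10 of 15 genes and in atria for 2 (median −0.83), with sums of 1795, 2113 and 2021 CPM in atria and 3094, 3158 and 3493 CPM in ventricles. The capillary gene Ly6c1 was higher in ventricles (−2.06 ± 0.08), whereas Vwf, which is stronger in veins and endocardium, was at 206, 273 and 240 CPM in atria and 37.4, 46.4 and 35.3 CPM in ventricles (2.60 ± 0.08). Endocardial and valve markers were higher in atria for 5 of 12 and in ventricles for 3, with Plvap (3.11 ± 0.13) and Cytl1 (2.56 ± 0.13) on the atrial side and Wnt9b (−2.19 ± 0.40) on the other. Smooth muscle and pericyte markers were higher in ventricles for 9 of 16 and in atria for 2, with Vtn at −2.43 ± 0.10 and the smooth muscle gene Cnn1 at 3.29 ± 0.21. Globin and other erythroid markers were higher in ventricles for 5 of 6 tested (median −2.20), with sums of 449, 329 and 361 CPM in atria and 2271, 1398 and 1330 CPM in ventricles. The globin copies Hba-a1 and Hba-a2, and Hbb-bs and Hbb-bt, are near-identical and may share reads. The part of these cell types in the chamber differences was not tested.

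Sinoatrial node markers were mixed, with 6 of 12 tested higher in atria and 4 in ventricles, and Isl1 did not pass the filter on low counts. Vsnl1 was at 15.2, 12.1 and 14.6 CPM in atria and 0, 0.0149 and 0.511 CPM in ventricles, and its log2 fold change of 6.59 was 10.72 without V123. Cpne5 was higher in atria (5.84 ± 0.15). Tbx3, a repressor of the working myocardial programme, was at 2.20, 2.58 and 3.27 CPM in atria and 8.17, 8.64 and 9.59 CPM in ventricles (−1.73 ± 0.11). Hcn4, the pacemaker channel, looked up outside the rule, was at 8.29, 8.47 and 9.94 CPM in atria and 22.4, 9.46 and 12 CPM in ventricles. Its call toward ventricles (−0.62 ± 0.22, adjusted P value 0.0434) was lost without V119 (−0.22). The V119 ventricles were thus the highest for Hcn4, Irx1 and Irx2 alike. Of 10 conduction system markers, 5 were higher in atria and 2, Irx3 and Kcne1, in ventricles. Neuron and Schwann cell markers were higher in atria for 5 of 16 tested and in ventricles for 4, with the myelin gene Mbp at 3.23 ± 0.12 and the neuronal Stmn2 at −2.26 ± 0.13. Skeletal muscle markers were higher in ventricles for 6 of 12 tested, Acta1 among them, and in atria for 2. In edgeR 0 of 4 tested thymus and lung markers passed, with Cd8a closest (0.90, adjusted P value 0.0589) and Foxn1 at 0 counts in every library.

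The list of RNA-binding proteins linked to myotonic dystrophy, with Dmpk and its neighbour, held 20 genes, of which 18 were tested. The share that differed was 22.2%, against 33.6% over all genes, with 3 higher in atria, Rbfox1, Six5 and Celf4, and 1, Mbnl3, higher in ventricles (median 0.08). Rbfox1, a splicing regulator, was at 43.0, 37.6 and 41.5 CPM in atria and 18.3, 16.2 and 17.5 CPM in ventricles (1.23 ± 0.07). Six5, the neighbour of Dmpk on chromosome 7, was higher in atria by 0.88 ± 0.11. Mouse Dmpk was at 485, 510 and 451 CPM in atria and 670, 779 and 619 CPM in ventricles (−0.51 ± 0.08, adjusted P value 0.000725), under the fold limit. Reads were counted on the mouse genome, and whether reads of the human DMPK transgene entered these values was not tested. The muscleblind genes Mbnl1 and Mbnl2 had log2 fold changes of −0.19 and −0.17, and Celf1 of 0.17. Celf4 was called from low levels, 0.788 CPM in atria and 0.187 CPM in ventricles on average, and Mbnl3 from 0.0391 and 0.169 CPM. Celf4, Mbnl1, Mbnl2, Mbnl3 and Celf1 were chosen once their values had been seen.

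To ask whether the repeat RNA altered the chamber contrast, the difference between atria and ventricles in CUG960 mice was tested against that in MHCrtTA +dox controls in a fit of all 12 libraries. In the controls alone, 6113 of 17451 genes (35%) differed between chambers. Of 17074 genes tested in both genotypes, 4726 differed in both, which is 82.4% of the 5738 in CUG960 mice and 78.9% of the 5992 in controls, and 7 of them had opposite signs. The interaction itself passed for 1.82% of 18327 genes, 167 in each direction, and 2374 had an unadjusted P value under 0.05. Of the 5899 genes that differed in CUG960 hearts, 230 had an interaction: 116 had the same sign as and a larger size than in controls, 91 a smaller size and 22 the opposite sign, and 1 was not tested in controls alone.

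The gene with the smallest interaction P value was Plekha7, which encodes an adherens junction protein. In this fit it was at 146, 143 and 152 CPM in CUG960 atria and 25.0, 21.4 and 20.5 CPM in CUG960 ventricles, against 94.6, 113 and 102 CPM and 2.39, 3.17 and 3.30 CPM in controls. The CUG960 ventricles were high, so the chamber difference was 2.71 in CUG960 mice and 5.13 in controls, an interaction of −2.41 ± 0.13 (adjusted P value 0.000115). Whrn, a scaffold protein known from stereocilia, was ventricular in both genotypes but less so in CUG960 mice (−1.44 against −3.10, interaction 1.66 ± 0.12), with atria of 13.7, 14.6 and 13.3 CPM against 5.33, 5.47 and 4.96 CPM. Kcnv2, a modifier subunit of potassium channels, lost its ventricular excess: it was at 3.70, 5.26 and 4.40 CPM in CUG960 ventricles and 18.5, 21.4 and 22.9 CPM in control ventricles, while its atria were at 3.72, 5.68 and 5.26 CPM and 6.51, 7.43 and 7.66 CPM (0.11 against −1.54). Efnb3, an ephrin ligand, was more ventricular in CUG960 mice (−2.50 against −1.16), and Tppp3, a tubulin-binding protein, was less atrial (2.05 against 3.38).

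Among genes described above, Bmp10 had an interaction of 4.15 ± 0.53 (adjusted P value 0.00698), set in the ventricles, which were at 0.0343, 0.275 and 0.208 CPM in CUG960 mice and 2.43, 2.39 and 3.75 CPM in controls, while the atria overlapped. Nppa went the other way (−1.66 ± 0.33, adjusted P value 0.0388), with ventricles at 86.6, 224 and 151 CPM in CUG960 mice and 48.6, 54.4 and 84.8 CPM in controls and atria at 11401, 12381 and 11833 CPM against 16473, 16582 and 14628 CPM. This was lost without V120, V123, V327 or V333 and in DESeq2. Kcna1 was more atrial in CUG960 mice (2.44 ± 0.31), Adcy1 less atrial (−2.16 ± 0.28), and Cpxm2 more ventricular (−1.74 ± 0.19). For Gja1 the ventricular excess was present in CUG960 hearts and absent in controls, where the log2 fold change was 0.03 (interaction −0.63 ± 0.11, adjusted P value 0.0256), and it was lost without V119, V120 or V327. The interaction of Myl7 (2.67, adjusted P value 0.633) and of Sln (1.51, 0.727) did not pass, and without V123 both did (5.35, 0.00455, and 3.96, 0.00396).

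**Figure D5:**
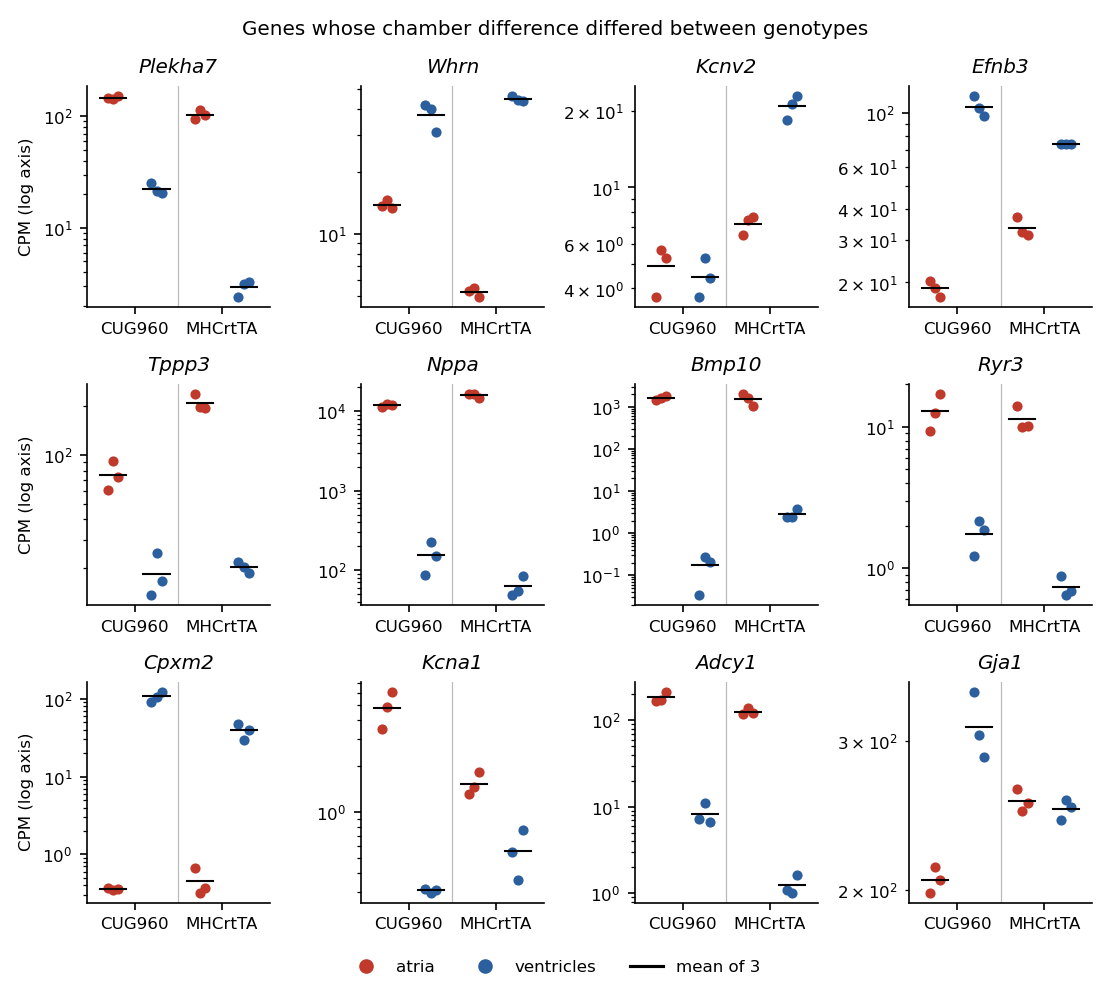
CPM (log axis) in atria (red) and ventricles (blue) of 3 CUG960 and 3 MHCrtTA +dox mice for 12 genes whose chamber difference differed between the genotypes, with a bar at the mean of 3. Kcnv2 and Gja1 show chambers apart in 1 genotype and near each other in the other, and for Plekha7 and Bmp10 the ventricles differ between genotypes (20.5 to 25.0 against 2.39 to 3.30 CPM, and 0.0343 to 0.275 against 2.39 to 3.75 CPM).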

How the data were processed

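Poly(A)-selected, stranded RNA-Seq libraries came from both chambers of each mouse, 3 CUG960 and 3 MHCrtTA, all on doxycycline. According to the study's methods and the labels, the authors counted reads per gene with RSEM 1.3.1 on GRCm38 (mm10), and deposited 1 table of expected counts, unscaled and unfiltered, for 51826 entries in 12 libraries. The values were rounded to whole numbers before every fit. ERCC spikes were not analysed here, and repeated symbols (92 entries) were kept apart.

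The main test was edgeR 4.0.16 (quasi-likelihood, TMM, filterByExpr with its minimum of 10 counts) on the 6 CUG960 libraries with the mouse as a block, because same-numbered chambers came from the same animal. Deviations from the chamber means correlated at r = 0.048, 0.286 and 0.212 between chambers of the same mouse (V119, V120 and V123). Between chambers of different mice r ran from −0.345 to 0.130. Genes were called at a Benjamini-Hochberg adjusted P value under 0.05 and a fold of at least 1.5, and the interaction at 0.05 with no fold limit, on 12 libraries. Errors are SD (n = 3) for levels and SE for log2 fold changes, and n is mice. With 3 mice a permutation test cannot go below P = 0.1 (groups) or 0.25 (pairs), so P values are from edgeR. Coordinates are from GENCODE M21 (GRCm38), promoters from RefSeq, and 616 tested entries had none. At a mean depth where 1 CPM is about 138 counts, levels near 0 rest on few counts.

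The genes named were the 6 markers, the 10 largest changes in each direction with at least 5 CPM in the higher chamber and the same direction in every mouse, from each of the 29 lists up to 4 called genes with the largest change and at least 1 CPM and the 2 most abundant, the 5 smallest interaction P values at 1 CPM or more, the 10 genes with most counts in each chamber, and members of contractile paralogue pairs (152 genes). Genes named otherwise are stated as such, and Mybphl, Sbk3, Kcna5, Cited1 and Pcsk1 were also chosen once their values had been seen. The members of the lists and the comparison were chosen with earlier results of these data known, so no test was run over a list. Some genes that the rule names are not reported here. Scripts were tested on simulated data. Alternatives were DESeq2 1.42.0, RLE and upper quartile scaling, filters, fold limits, no block, a fit of 12 libraries, no mitochondrial genes, and leaving out each mouse.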

Additional observations from a re-analysis of the deposited data

Results flagged for a closer look

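The chamber difference of 19 of the named genes differed between CUG960 +dox and MHCrtTA +dox mice in the edgeR interaction test, with a Benjamini-Hochberg adjusted P value under 0.05. The values below are the chamber difference (log2, atria over ventricles) in CUG960 mice minus that in controls. It was −2.41 for Plekha7, 1.66 for Whrn, 1.66 for Kcnv2, −1.34 for Efnb3 and −1.32 for Tppp3. It was 4.15 for Bmp10, −1.74 for Cpxm2, 2.44 for Kcna1 and −2.16 for Adcy1, and these 9 genes kept their call in every alternative in which they were tested.

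The other 10 lost it in 1 or more alternatives. These were Gja1 at −0.63, Rbfox1 at 0.60, Col8a1 at −0.98, Cilp at −1.65, Nppa at −1.66, Npr3 at −0.75, Ryr3 at −1.05, Gja5 at −0.99, Aldh1a2 at 0.56 and Tcf21 at −0.48. Aldh1a2 and Tcf21 lost it in each of the 6 fits without 1 mouse and without the block. Control ventricles held more Bmp10, 2.39 to 3.75 CPM, than CUG960 ventricles, 0.0343 to 0.275 CPM. They also held more Myl7 relative to atria than V119 and V120, but less than V123. In the V123 ventricles Myl7 was at 2.23% of the atrial level and Bmp10 at 0.0118%. The part of carried-over atrial tissue in the Bmp10 value was not tested.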

How the results depend on the processing

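The direction of the chamber calls held in every alternative run: 0 of the genes called in common with another setting reversed. Against 5899 genes, the fit without the replicate block (chambers not paired) called 5900, DESeq2 5573, RLE scaling 5915, upper quartile scaling 5943, the 12-library fit 6045, a minimum of 10 counts in every library 5180, no filter 6241 and a test against a 1.5-fold change 4046. Leaving out each mouse gave 5379 to 5966 (2793 to 3089 higher in atria, 2586 to 2877 in ventricles). With no fold limit 9729 genes passed (4782 and 4947), and a limit of 1.5 on the log2 scale left 2223 (1329 and 894). Interaction calls moved more. With all mice there were 167 in each direction, and the counts that follow are totals of both directions. There were 669 in DESeq2 and 253 without the replicate block. Leaving out 1 mouse gave 83 (without V120), 108 (V327), 129 (V333), 138 (V119), 182 (V123) and 243 (V334). Of these counts only that of DESeq2 was above the total with all mice, and the others were below it.

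Of 152 named genes, 19 moved by over 1.5 times when 1 mouse was left out. Pairing the mice changed 2 chamber calls of named genes: in edgeR without the block, Adipoq did not pass (adjusted P value 0.0599) and Cd8a did (0.0412). Without the block, the interactions of Ryr3, Aldh1a2, Cilp, Gja5 and Tcf21 did not pass, and the values of Myl7 and Sln, which did not pass in either fit, were −0.76 and −0.47. Ventricular libraries were deeper than atrial ones, and genes with few counts in 1 chamber have fitted folds that depend on the prior count. Upper quartile scaling shifted the median by 0.04, and raw-total scaling put Myl7 in the V123 ventricles at 1.68% of atria and Sln at 1.10%.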
